A study of Mus musculus with 20 samples.

Results

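The DNA damage response and repair genes were examined in mouse lenses that had lost the activator E2F transcription factors. The genes were taken from a list of 42 that covers the checkpoint, homologous recombination, the Fanconi pathway with lesion bypass, end joining, and mismatch and excision repair. Of these, 41 had a named probe set among the 18193 genes of the array, and Xrcc2 is not analysed here. Each gene was represented by the probe set with the highest mean over all 20 arrays.

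Each array measured RNA from both lenses of 1 mouse, and each of 4 groups held 5 mice. TKO lenses were Cry-Cre E2F1-/- E2F2-/- E2F3f/f, at birth (P0) or at the embryonic stage E17.5, and control lenses were E2F2-/- at matching ages. All 20 mice thus lacked E2F2, and only TKO mice carried Cre. E2F1 and E2F2 were lost in every cell, whereas E2F3 was lost only where Cry-Cre, which by its name is driven by a crystallin promoter, had acted. The purpose stated for the series was to find events that precede the collapse of E2F-deficient lenses in newborns.

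DNA damage is sensed by the kinases ATM, which answers to double-strand breaks, and ATR, which answers to stalled forks, and both signal through checkpoint kinases that hold the cell cycle. Breaks are then joined end to end or copied from the sister chromatid, crosslinks are opened by the Fanconi pathway, and wrong or damaged bases are cut out by mismatch and excision repair. Many of these genes are transcribed most in S phase, and a share of them are known targets of E2F factors, which can activate or repress them.

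The values are log2 expression levels, so a difference of 1 is a 2-fold change, and changes are given as TKO minus control with the standard error (SE) of the fit. Array medians lay between 5.05 and 5.25. The median SD of a gene within a group was 0.182 in TKO E17.5 lenses and 0.108 in control E17.5 lenses, and 0.151 in TKO P0 lenses and 0.116 in control P0 lenses. TKO E17.5 replicates 24 and 27 correlated more closely with the control arrays (mean r of 0.990 and 0.993) than with the other arrays of their own group (0.985 and 0.988). E2f1 averaged 7.79 ± 0.14 in TKO and 7.34 ± 0.14 in control lenses at P0, and 7.81 ± 0.17 in TKO and 7.21 ± 0.04 in control lenses at E17.5 (SD, n = 5 each). The positions of its probes relative to the deleted part are not known here, so this level checks nothing about the labels. E2f3, floxed in TKO mice, averaged 7.95 ± 0.17 in TKO and 8.01 ± 0.09 in control lenses at P0, and 8.38 ± 0.21 in TKO and 8.46 ± 0.12 in control lenses at E17.5, differences within the spread of the arrays, and the same limit holds for its probes. The labels name epithelial cells as the cell type, but both whole lenses were taken, and markers of fibre cells gave signal beside those of epithelium. At P0 the log2 summed signal of 9 lens fibre markers ranged from 17.19 to 17.25 in TKO and from 17.18 to 17.22 in control lenses, and that of 6 lens epithelium markers from 12.23 to 12.84 in TKO and from 12.37 to 12.54 in control lenses. That sum hides opposite changes, since 4 of the 6 epithelium markers were lower and 2 higher in TKO lenses at P0, with changes from -2.74 to 0.74 and a median of -1.12.

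E2F factors bind a short motif rich in G and C, whose letters were sought in the promoters. The 8-base spellings TTTCCCGC, TTTCGCGC, TTTGCCGC and TTTGGCGC were searched on both strands in windows from 250 bases before to 50 bases after the start site. A window was available for 36 of the 41 genes, and 10 of them (27.8%) held a match, against 3.81% of 14452 array genes with a window. The windows were similar in base composition, with a median GC content of 59.7% for the repair genes and 58.7% for the array genes. Of the 13 genes with a window that were higher in TKO lenses at P0, 6 held a match (46.2%), and of the 22 that were not called, 4 did (18.2%). The 4 promoters below are those of 3 genes higher in TKO lenses at P0 with a match and of the gene that was lower, in RefSeq sequence of build GRCm38.p6, read 5′ to 3′ on the gene's strand with the motif in capitals. The match begins at base +16 in Msh6 (chr17:87974800-87975099, plus strand), at -168 in Brca2 (chr5:150522371-150522670, plus strand) and at -129 in Topbp1 (chr9:103305077-103305376, plus strand), and the Trp53bp1 window (chr2:121271358-121271657, minus strand) holds none of the 4 spellings.
Msh6: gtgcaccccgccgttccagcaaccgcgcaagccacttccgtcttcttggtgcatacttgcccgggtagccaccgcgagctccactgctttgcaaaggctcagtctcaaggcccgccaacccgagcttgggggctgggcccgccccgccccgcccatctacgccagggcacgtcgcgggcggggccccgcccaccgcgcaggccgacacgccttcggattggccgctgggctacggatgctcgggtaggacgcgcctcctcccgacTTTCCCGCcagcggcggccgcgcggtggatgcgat
Brca2: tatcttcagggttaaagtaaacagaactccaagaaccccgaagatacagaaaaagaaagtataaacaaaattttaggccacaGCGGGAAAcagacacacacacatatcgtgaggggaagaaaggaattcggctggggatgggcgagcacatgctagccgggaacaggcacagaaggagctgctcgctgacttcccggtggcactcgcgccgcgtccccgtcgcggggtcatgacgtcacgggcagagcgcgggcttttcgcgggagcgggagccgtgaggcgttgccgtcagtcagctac
Topbp1: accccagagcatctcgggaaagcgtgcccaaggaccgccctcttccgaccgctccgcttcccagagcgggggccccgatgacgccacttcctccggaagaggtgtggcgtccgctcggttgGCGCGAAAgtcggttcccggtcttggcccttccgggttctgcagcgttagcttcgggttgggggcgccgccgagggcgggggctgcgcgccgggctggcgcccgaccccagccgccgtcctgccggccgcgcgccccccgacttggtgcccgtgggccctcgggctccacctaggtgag
Trp53bp1: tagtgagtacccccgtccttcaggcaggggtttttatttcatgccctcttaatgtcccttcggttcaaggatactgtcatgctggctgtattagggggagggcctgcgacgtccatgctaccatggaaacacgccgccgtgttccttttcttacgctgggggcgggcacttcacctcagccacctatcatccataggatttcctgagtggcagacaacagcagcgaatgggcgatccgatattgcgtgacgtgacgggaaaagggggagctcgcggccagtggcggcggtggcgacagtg

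At P0, repair genes were more often higher than lower in TKO lenses relative to control lenses. Of the 41 genes, 16 rose, 1 (Trp53bp1) fell and 24 did not pass the test (limma, Benjamini-Hochberg adjusted p below 0.05 over all 18193 genes). Over all genes 13.6% were called higher and 11.7% lower, and among the 11859 genes above the array median in at least 5 arrays 20.2% were higher and 19.4% lower. With a filter at the 75th percentile only 14 repair genes were tested, of which 3 rose, a share near the 23.2% of the 7302 genes tested there, and 1 fell, against 26.2%. The median change was 0.14 for the repair genes, against 0.00 for all genes. In 13 of the genes that rose, and in the gene that fell, the 5 TKO arrays did not overlap the 5 control arrays, while over all genes 9.65% were higher and 8.73% lower without overlap. The 3 genes that rose with overlapping groups were Chek2, Fancd2 and Xrcc4. By pathway, the genes that rose were 5 of 11 checkpoint genes, 5 of 14 recombination genes, 3 of 6 Fanconi and bypass genes, 1 of 3 end joining genes and 2 of 7 mismatch and excision genes.

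**Figure D1:**
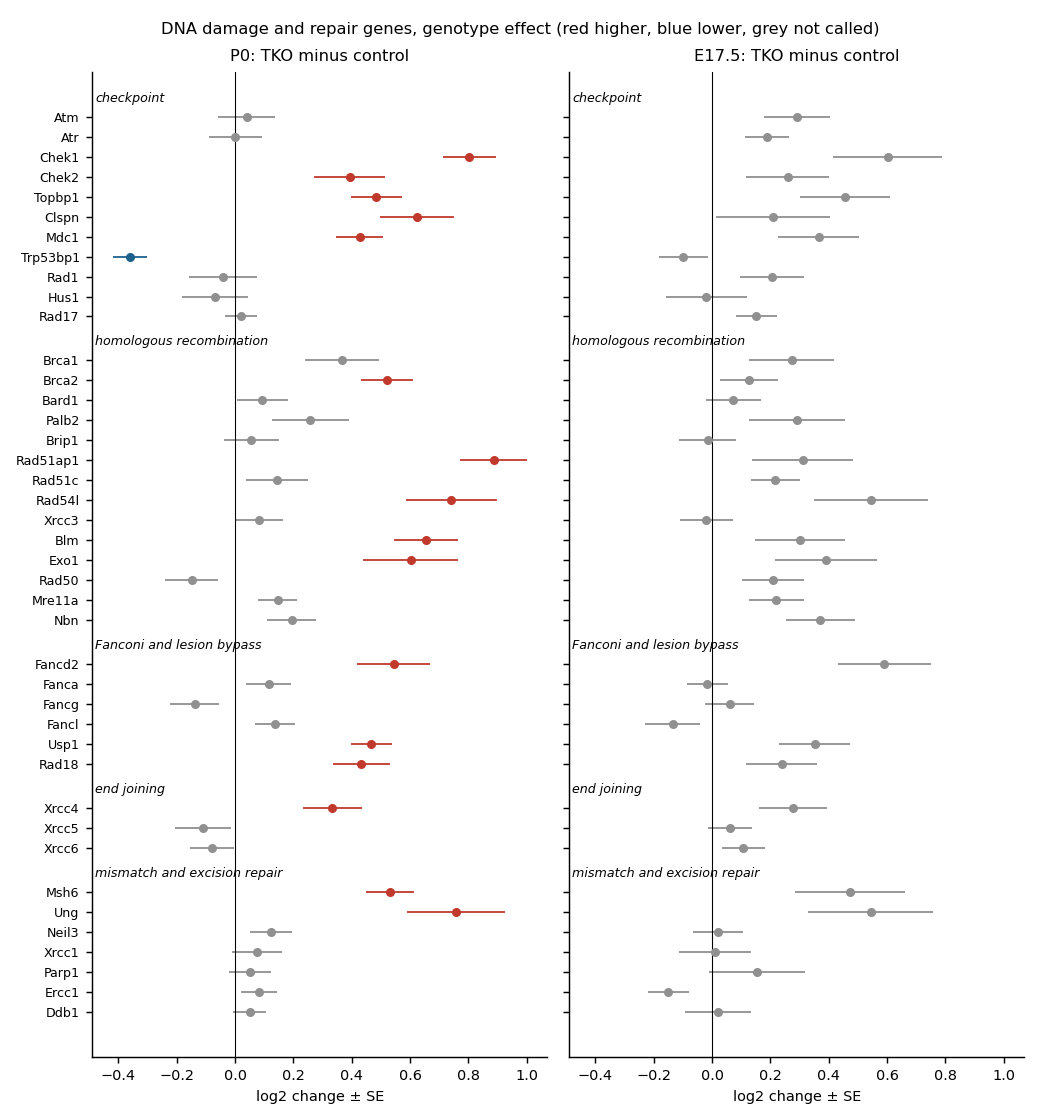
Log2 change (TKO minus control, point, with its SE as a bar) of each of the 41 repair genes by pathway, at P0 on the left and at E17.5 on the right. At P0, 16 genes are marked as higher and Trp53bp1 as lower, and at E17.5 none is called although 34 of the 41 changes lie above 0.

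Among checkpoint genes, Chek1, the kinase that ATR activates to hold cells with unreplicated DNA, was at 5.65, 6.08, 5.60, 5.67 and 5.79 in the TKO P0 arrays, against 4.93, 5.02, 4.98, 4.84 and 5.02 in the control P0 arrays. Every TKO array lay above every control array. The change was 0.80 ± 0.09 (SE, n = 5 each, limma adjusted p = 0.000208), which is a 1.75-fold difference. Of the 5 Chek1 probe sets, a second differed by 0.95, and the dimmer others by 0.19, 0.09 and 0.10. Topbp1, the protein that switches ATR on, rose by 0.48 ± 0.09 (adjusted p = 0.00228), and Clspn, the adaptor claspin that brings Chek1 to ATR, by 0.63 ± 0.13 (adjusted p = 0.00431). Mdc1, the scaffold that binds phosphorylated histone H2AX at breaks, rose by 0.43 ± 0.08. Atr itself, at 0.00 ± 0.09, and Atm, at 0.04 ± 0.10, were not called. The clamp of Rad1 and Hus1 and its loader Rad17, which also serve ATR, were not called either, at -0.04 ± 0.12, -0.07 ± 0.11 and 0.02 ± 0.06. The members that rose thus included the adaptors and the effector kinase of the ATR branch, and the ATR kinase, the clamp and its loader did not pass.

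Chek2, the kinase downstream of ATM, rose by 0.39 ± 0.12 (limma adjusted p = 0.0333), with 6.47, 6.38, 6.18, 6.02 and 6.27 in TKO P0 arrays against 5.73, 6.07, 5.50, 5.95 and 6.09 in control P0 arrays. The lowest TKO array lay below the highest 2 control arrays. Its call was lost when any of TKO P0 replicates 17, 18, 19 or 22 or control P0 replicates 1, 6 or 7 was left out, with adjusted p from 0.0503 to 0.0815 and changes from 0.30 to 0.41.

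Trp53bp1 encodes 53BP1, which protects broken ends from resection and favours end joining over recombination. Its brightest probe set was at 9.83, 9.80, 9.80, 9.70 and 9.81 in the TKO P0 arrays, against 10.06, 10.09, 10.24, 10.15 and 10.20 in the control P0 arrays. All TKO arrays were below all control arrays. The change was -0.36 ± 0.06 (limma adjusted p = 0.00124). At E17.5 the same probe set changed by -0.10 ± 0.08 and was not called (adjusted p = 0.49).

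The other probe sets of Trp53bp1, not tested singly, did not show 1 common change. At P0 1426957_at, the second brightest, differed by -0.24 and 1435609_at by -0.31, near the brightest probe set. At E17.5 they differed by 0.06 and -0.14. Of 17 called genes, 11 had several probe sets, and in 10 of these all probe sets changed in the same direction at P0, Trp53bp1 being the exception. Probe set 1457812_at was at 3.33 ± 0.94 in TKO and 5.24 ± 0.63 in control lenses at P0, and at 3.31 ± 0.60 in TKO and 5.17 ± 0.30 in control lenses at E17.5 (SD, n = 5 each). Probe set 1442316_x_at was at 4.05 ± 0.65 in TKO and 5.56 ± 0.74 in control lenses at P0, and at 3.43 ± 0.18 in TKO and 5.41 ± 0.31 in control lenses at E17.5. The changes of these dim probe sets thus lay between -1.98 and -1.52 at both stages, beyond that of the brightest. At E17.5 all 5 TKO arrays lay below all 5 control arrays in both. At P0 TKO replicate 22 lay within the control range of both, at 5.0 for 1457812_at and 5.11 for 1442316_x_at, while the other 4 TKO arrays ranged from 2.86 to 3.07 and from 3.34 to 4.03. Only probe set 1446100_at was higher at P0, at 5.59 ± 0.14 in TKO and 5.31 ± 0.13 in control lenses. Trp53bp1 lies on chromosome 2, as does E2f1, which is deleted in TKO mice only, and the part of this shared chromosome in the probe differences was not tested.

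**Figure D2:**
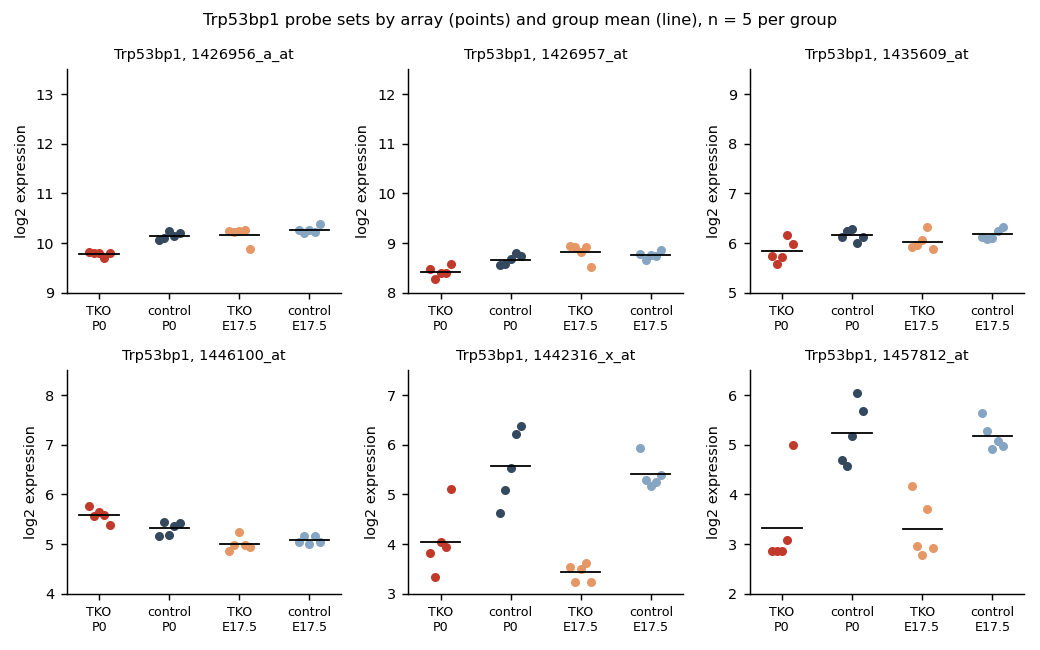
Log2 level of the 6 Trp53bp1 probe sets in each array (points) with the group mean (line), for TKO and control lenses at P0 and at E17.5, on panels that span the same log2 range. The brightest probe set changes by -0.36 at P0, whereas 1457812_at and 1442316_x_at change by -1.98 to -1.52 at the 2 stages.

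Of the 14 recombination genes, 5 rose and none fell at P0. Rad51ap1, which promotes the pairing of DNA strands, was at 5.63, 5.85, 5.58, 5.88 and 5.80 in TKO P0 arrays, against 5.18, 4.89, 4.67, 4.99 and 4.57 in control P0 arrays. The groups did not overlap, and the change of 0.89 ± 0.11 (limma adjusted p = 0.000399) was the largest among the repair genes at P0. Blm, the helicase mutated in Bloom syndrome that resolves recombination intermediates, was at 6.21, 6.68, 6.24, 6.37 and 6.33 in TKO P0 arrays and at 5.56, 5.93, 5.83, 5.49 and 5.75 in control P0 arrays. Again no array overlapped, with a change of 0.65 ± 0.11 (adjusted p = 0.00147).

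Rad54l, a motor protein that moves along DNA during strand exchange, rose by 0.74 ± 0.15 (limma adjusted p = 0.00496). Exo1, a nuclease that resects broken ends and also serves mismatch repair, rose by 0.60 ± 0.16 (adjusted p = 0.0178). Brca2, a mediator of recombination whose promoter is printed above, was at 6.20, 6.29, 6.16, 6.35 and 6.21 in TKO P0 arrays against 5.62, 6.0, 5.54, 5.84 and 5.61 in control P0 arrays, a rise of 0.52 ± 0.09 (adjusted p = 0.00185). Its partners did not pass the test. Brca1 was at 0.37 ± 0.13 (adjusted p = 0.0529), its ring partner Bard1 at 0.09 ± 0.09 and Palb2, which bridges BRCA1 and BRCA2, at 0.26 ± 0.13. The helicase Brip1 was at 0.06 ± 0.09, and the recombination genes Rad51c and Xrcc3 at 0.14 ± 0.11 and 0.08 ± 0.08. Dimmer probe sets, not tested singly, differed by 0.57, -0.10 and 0.68 for Brca1, 0.47 for Rad51c and -0.0006 for Xrcc3. The end-sensing complex of Mre11a, Rad50 and Nbn was not called, at 0.15 ± 0.07, -0.15 ± 0.09 and 0.19 ± 0.08. Bard1, Palb2, Brip1 and Fancd2 were the 4 members that did not lie above the array median in at least 5 arrays, so their changes rest on dim probe sets.

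**Figure D3:**
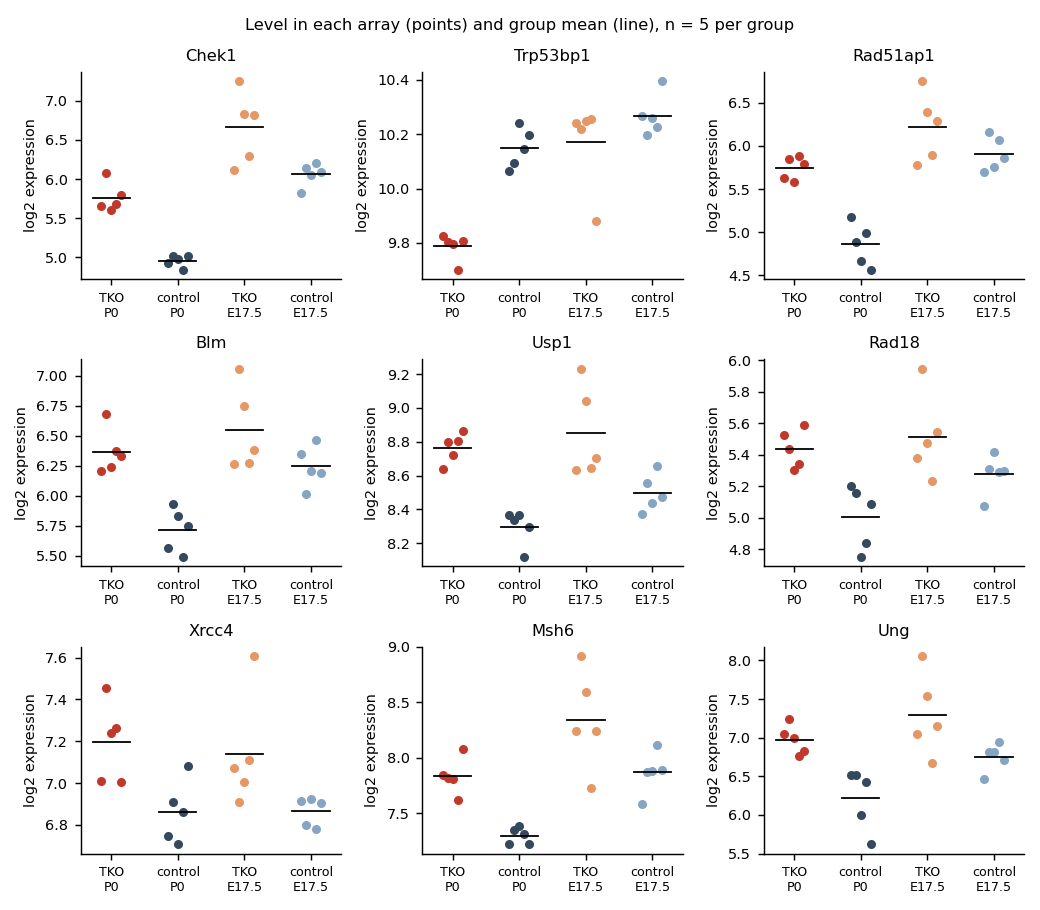
Log2 level of 9 repair genes called at P0, those with the smallest adjusted p of their pathway, in every array (points) with the group mean (line), for TKO P0, control P0, TKO E17.5 and control E17.5 lenses. In 8 of the 9 genes the TKO and control arrays do not overlap at P0, Xrcc4 being the exception, and at E17.5 all 9 overlap.

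In the Fanconi pathway and lesion bypass, 3 of 6 genes rose at P0. Usp1, the deubiquitinase that removes ubiquitin from FANCD2 and PCNA, was at 8.64, 8.80, 8.72, 8.80 and 8.87 in TKO P0 arrays, against 8.37, 8.34, 8.37, 8.12 and 8.30 in control P0 arrays. The groups did not overlap, and the change was 0.47 ± 0.07 (limma adjusted p = 0.000825). Rad18, the ligase that ubiquitinates PCNA to start lesion bypass, was at 5.52, 5.43, 5.31, 5.34 and 5.59 in TKO P0 arrays and at 5.20, 5.16, 4.75, 4.84 and 5.09 in control P0 arrays, a change of 0.43 ± 0.10 (adjusted p = 0.0075) without overlap. Genes on both sides of the ubiquitin switch on PCNA were therefore higher. Fancd2, whose ubiquitination is the central step of the pathway, rose by 0.54 ± 0.12 (adjusted p = 0.00785), and its call was lost in the mean over its probe sets (0.19, adjusted p = 0.13). The core complex genes Fanca, Fancg and Fancl, the last being its ligase, were not called, at 0.12 ± 0.08, -0.14 ± 0.08 and 0.14 ± 0.07. Their dimmer second probe sets differed by 0.47, 0.15 and -0.06 and were not tested singly.

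End joining showed the smallest called change of the genes that rose. Xrcc4, the partner of the ligase that seals broken ends, was at 7.01, 7.46, 7.24, 7.26 and 7.01 in TKO P0 arrays, against 6.75, 6.91, 6.71, 6.86 and 7.08 in control P0 arrays. TKO replicates 17 and 22 lay below the highest control array. The change was 0.33 ± 0.10 (limma adjusted p = 0.0304), and the call was lost without TKO P0 replicates 18, 19 or 21 or control P0 replicates 1, 6 or 7, with changes from 0.27 to 0.33 and adjusted p from 0.0521 to 0.0767. The call was also lost in the mean over the Xrcc4 probe sets, the second of which differed by 0.04. The end-binding Ku proteins, Xrcc6 (Ku70) and Xrcc5 (Ku80), were not called, at -0.08 ± 0.07 and -0.11 ± 0.10.

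In mismatch and excision repair, 2 of 7 genes rose at P0. Msh6, which recognises base mismatches, was at 7.85, 7.82, 7.81, 7.62 and 8.08 in TKO P0 arrays, against 7.22, 7.35, 7.39, 7.31 and 7.23 in control P0 arrays, and changed by 0.53 ± 0.08 (limma adjusted p = 0.000978). Ung, the glycosylase that removes uracil from DNA, was at 7.05, 7.24, 6.99, 6.77 and 6.82 in TKO P0 arrays, against 6.52, 6.52, 6.0, 6.43 and 5.62 in control P0 arrays, and changed by 0.76 ± 0.17 (adjusted p = 0.00689). Neither gene overlapped between the groups. The 5 remaining genes lay close to 0 and were not called: the glycosylase Neil3 at 0.12 ± 0.07, the scaffold Xrcc1 at 0.08 ± 0.09, the break sensor Parp1 at 0.05 ± 0.07, the nuclease subunit Ercc1 at 0.08 ± 0.06 and the ultraviolet damage sensor Ddb1 at 0.05 ± 0.06.

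Genes known from S phase made up a part of those that rose. Of the listed genes, 7 belong to a widely used S phase expression signature, Ung, Usp1, Clspn, Blm, Brip1, Rad51ap1 and Exo1, of which 6 rose at P0, with a median change of 0.63. Of the other 34 genes, 10 rose and 1 fell, with a median of 0.12. Markers of DNA replication and of mitosis were also higher in TKO P0 lenses, with 19 of 20 and 15 of 16 genes called. Their summed signal ranged from 12.59 to 12.98 in TKO and from 11.83 to 12.01 in control lenses for replication, and from 11.13 to 11.60 in TKO and from 10.10 to 11.06 in control lenses for mitosis (log2, exact permutation test, adjusted p = 0.0249 for each, from the smallest p of 0.00794 that 5 against 5 arrays can give). In these bulk samples, more or fewer cells of a type and more or less RNA per cell cannot be told apart.

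Markers of other tissues and signs of RNA quality moved with the genotype at P0. Of 17 retina markers, 15 were called higher, and their summed signal ranged from 11.23 to 12.05 in TKO and from 9.26 to 10.63 in control lenses (log2, difference 1.60, exact permutation test, adjusted p = 0.0249 over 22 tests). Pigment cell markers differed by 1.38 (adjusted p = 0.0249, 6 of 9 genes called higher), and macrophage markers by 0.75 (adjusted p = 0.105, 3 of 10 called higher). The lens epithelium markers deviated from the control mean by a median of -1.37, -1.65, -1.44, -0.76 and -0.36 in TKO P0 replicates 17, 18, 19, 21 and 22. Of the 6 markers, 4 were called lower, among them Pdgfra at -2.74 ± 0.43 and Cdh1 at -1.94 ± 0.23. The other 2 were called higher, by up to 0.74, and the summed signal differed by 0.13 (exact permutation test, adjusted p = 0.36). The part of these markers in the changes of repair genes was not tested. The lowest value of any probe set was 1.72, so a value above 0 does not by itself show that a marker was expressed. The Gapdh signal at the 5′ end minus that at the 3′ end ranged from 0.15 to 0.19 in TKO and from -0.05 to 0.06 in control lenses, a difference of 0.18 (adjusted p = 0.0249), and the 18S rRNA signal differed by -0.32 (adjusted p = 0.0249). With the mean log2 level of the retina markers as a covariate, all 17 called genes kept their direction and 13 kept at least 80% of their change. The share kept ran from 60.8% to 201%, however, standard errors were 2 times as large and none was called (limma, smallest adjusted p = 0.0883). With the Gapdh measure as a covariate, all 17 kept their direction and 13 kept at least 80%, but the share kept ran from 11.3% for Fancd2 (0.06) to 287% for Ung (2.17), standard errors were 3.17 times as large and none was called (smallest adjusted p = 0.189). The size of single changes under these covariates is therefore poorly determined. Because the summed retina signal and the Gapdh values do not overlap between genotypes at P0, their part in these changes and that of the genotype cannot be told apart.

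At E17.5 none of the 41 genes was called, although most changes had the same sign as at P0. Of the 41 changes 34 were positive, with a median of 0.21, against -0.06 for all genes, of which 0.912% were called higher and 0.731% lower by limma. At an unadjusted p below 0.05, 15 repair genes were higher and 0 lower, while over all genes 7.66% were higher and 16.0% lower. In 1 gene, Mdc1, the TKO arrays lay above all control arrays, and in 0 genes below, against 2.76% and 5.51% over all genes. Mdc1 ranged from 5.19 to 5.90 in TKO and from 4.71 to 5.17 in control E17.5 lenses (change 0.37 ± 0.14, adjusted p = 0.15).

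The largest changes at E17.5 were those of Chek1 and Fancd2. Chek1 was at 6.12, 7.25, 6.83, 6.30 and 6.81 in TKO replicates 24 to 28, against 5.82, 6.13, 6.04, 6.20 and 6.09 in control E17.5 arrays. TKO replicate 24 lay within the control range and replicate 27 just above its top. The change was 0.60 ± 0.19 (limma adjusted p = 0.10). Fancd2 changed by 0.59 ± 0.16 (adjusted p = 0.0746), with 4.74, 5.55, 5.59, 5.06 and 4.99 in TKO against 4.60, 4.60, 4.37, 4.61 and 4.78 in control E17.5 arrays. Only TKO replicate 24 fell within the control range.

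By pathway, unadjusted p fell below 0.05 upward for 5 of 11 checkpoint genes, 5 of 14 recombination genes, 2 of 6 Fanconi genes, 1 of 3 end joining genes and 2 of 7 mismatch and excision genes. Over all genes the shares at that threshold were 7.66% higher and 16.0% lower, and no repair gene passed after adjustment. Checkpoint changes included Topbp1 at 0.46 ± 0.15, Mdc1 as above, Atm at 0.29 ± 0.11, Chek2 at 0.26 ± 0.14, Clspn at 0.21 ± 0.20, Rad1 at 0.20 ± 0.11, Atr at 0.19 ± 0.08, Rad17 at 0.15 ± 0.07 and Hus1 at -0.02 ± 0.14. Atm and Atr, which lay near 0 at P0, had positive changes at E17.5 that did not pass. Recombination genes ran from -0.02 ± 0.09 for Xrcc3 and -0.02 ± 0.10 for Brip1 through Bard1, Brca2, Rad50, Rad51c, Mre11a, Brca1, Palb2, Blm, Rad51ap1, Nbn and Exo1 to 0.55 ± 0.20 for Rad54l. Of these, Brca2 was at 0.13 ± 0.10 and Nbn at 0.37 ± 0.12. Usp1 was at 0.35 ± 0.12, Rad18 at 0.24 ± 0.12, Fancg at 0.06 ± 0.09, Fanca at -0.02 ± 0.07 and Fancl at -0.14 ± 0.09. Among the rest, Xrcc4 was at 0.28 ± 0.12, Msh6 at 0.47 ± 0.19, Ung at 0.54 ± 0.21, Parp1 at 0.15 ± 0.16, Xrcc6 at 0.11 ± 0.07, Xrcc5 at 0.06 ± 0.08, Ercc1 at -0.15 ± 0.07, and Neil3, Xrcc1 and Ddb1 within 0.02 of 0.

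The TKO E17.5 arrays differed among themselves, and the repair genes varied with them. The median deviation from the E17.5 control mean over the 16 genes that rose at P0 was 0.12, 0.90, 0.52, 0.04 and 0.37 in TKO replicates 24, 25, 26, 27 and 28. Replicate 27 was at the control level and replicate 25 was the highest. The replication markers were at 0.33, 1.07, 0.72, 0.01 and 0.58 in the same arrays, and the retina markers at -0.52, 1.84, 1.53, -0.03 and 0.78. In the TKO P0 arrays, 17, 18, 19, 21 and 22, the same 16 genes were at 0.51, 0.74, 0.40, 0.49 and 0.61. At E17.5 the summed retina markers ranged from 10.42 to 13.18 in TKO and from 10.30 to 11.46 in control lenses (difference 0.85, exact permutation test, adjusted p = 0.268), and the Gapdh measure differed by 0.20 (adjusted p = 0.0249). Their part in the spread of the repair genes was not tested.

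**Figure D4:**
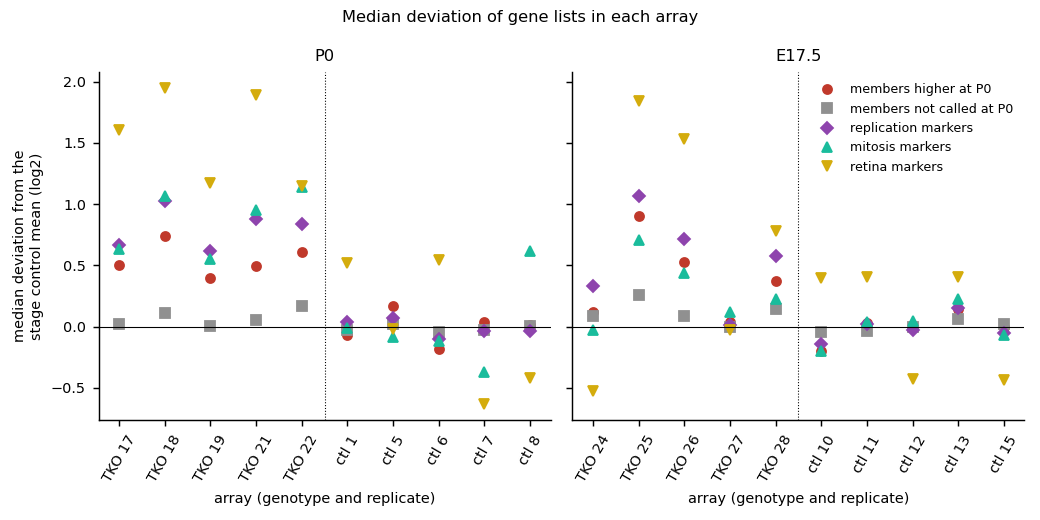
Median deviation (log2) from the mean of the control arrays of the same stage, for the 16 repair genes higher at P0, the 24 not called at P0 and markers of replication, mitosis and retina, in each TKO array and then each control array (ctl). The 16 genes, chosen for their rise at P0, lie between 0.40 and 0.74 in the TKO P0 arrays and between 0.04 and 0.90 in the TKO E17.5 arrays. The 24 genes not called lie between 0.004 and 0.17 in the TKO P0 arrays and between -0.002 and 0.26 in the TKO E17.5 arrays.

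The E17.5 count differed between fits. In 1 fit of all 20 arrays Chek1, Fancd2, Nbn, Topbp1 and Usp1 were called higher, against 3.34% of all genes higher and 5.38% lower. With array weights, 16 repair genes were called higher and 0 lower, against 6.24% of all genes higher and 9.51% lower. Without TKO E17.5 replicate 27, Msh6 at 0.63 ± 0.15 (limma adjusted p = 0.0392) and Rad54l at 0.69 ± 0.17 (adjusted p = 0.0422) were called.

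The genes that rose at P0 were followed at E17.5, where no array is shared with the P0 comparison. All 16 had a positive change at E17.5 (from 0.13 to 0.60, median 0.36). Of the 2467 array genes called higher at P0, 89.9% had a positive change at E17.5, with a median of 0.23, so the shared sign was not particular to repair genes. Of the 24 repair genes not called at P0, 18 had a positive change at E17.5, which is 75%, against 32.9% of all genes not called at P0.

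Whether the genotype effect differed between the stages was tested directly over all 20 arrays. None of the 41 genes was called, while over all genes 0.0330% had a higher and 0.0715% a lower effect at P0. At an unadjusted p below 0.05, 4 repair genes had a higher and 2 a lower effect at P0, near the 9.36% higher and 5.30% lower of all genes. The smallest p was that of Brca2, whose effect was larger at P0 by 0.40 ± 0.14 (limma adjusted p = 0.218), and the largest difference was that of Rad51ap1, at 0.58 ± 0.22 (adjusted p = 0.244). The difference for Trp53bp1 was -0.26 ± 0.10 (adjusted p = 0.244) and was called without TKO E17.5 replicate 28 (-0.33 ± 0.07, adjusted p = 0.0474). With array weights, Ercc1 (0.29 ± 0.07, adjusted p = 0.02), Fancl (0.35 ± 0.09, adjusted p = 0.0242) and Trp53bp1 (-0.30 ± 0.08, adjusted p = 0.0242) were called, against 4.77% of all genes higher and 4.24% lower. In the fit without weights a difference between the stages was not shown for any of the 41 genes, nor was equality.

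The repair genes that changed between the stages were all lower at P0 than at E17.5, in both genotypes. In TKO lenses, 0 of 41 genes were higher and 9 lower at P0, with a median change of -0.32, while over all genes 8.24% were higher and 6.29% lower. The 9 were Exo1 at -1.17 ± 0.18, Chek1 at -0.90 ± 0.19, Hus1 at -0.60 ± 0.14, Xrcc5 at -0.58 ± 0.10, Xrcc6 at -0.55 ± 0.08, Chek2 at -0.49 ± 0.15, Rad1 at -0.45 ± 0.11, Rad50 at -0.42 ± 0.12 and Trp53bp1 at -0.38 ± 0.09. The Ku genes, which showed no genotype call at either stage, were thus lower at P0 in both genotypes, at -0.41 ± 0.06 for Xrcc5 and -0.36 ± 0.07 for Xrcc6 in control lenses. The count of 9 became 3 without TKO P0 replicate 17 or 19 (Exo1, Xrcc5 and Xrcc6), and 5 without TKO E17.5 replicate 25 or 26. In TKO lenses 3 of 20 replication markers and 7 of 16 mitosis markers were lower at P0, and 1 replication marker was higher.

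In control lenses, 0 of 41 genes were higher and 21 lower at P0, with a median change of -0.24, while over all genes 8.66% were higher and 14.6% lower. The largest control changes were those of Exo1 at -1.38 ± 0.16, Chek1 at -1.10 ± 0.07, Rad51ap1 at -1.05 ± 0.12, Rad54l at -0.83 ± 0.13 and Clspn at -0.82 ± 0.11. Replication markers (18 of 20) and mitosis markers (16 of 16) were also lower at P0 in control lenses, as were 6 of 17 retina markers.

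By the threshold, 6 genes were lower at P0 in both genotypes, 3 in TKO lenses only and 15 in control lenses only, of which 10 were among those higher in TKO lenses at P0. These calls come from arrays that the genotype comparisons also use, so they are not separate evidence, and the spread among TKO E17.5 arrays widens the TKO errors. A low level in the control P0 arrays favours both the stage call in control lenses and the higher call at P0. The overlap was not counted over all genes, so it is not shown to be particular to repair genes. In the order of the 4 group means, TKO E17.5 lenses held the highest level of 30 of the 41 genes (73.2%) and control P0 lenses the lowest of 31 (75.6%), against 19.7% and 23.3% of all genes. For 13 genes (31.7%, against 6.52% of all genes) the order ran TKO E17.5, control E17.5, TKO P0, control P0 from high to low. Chek1, at means of 6.66, 6.06, 5.76 and 4.96, is an example. For Xrcc4 and Usp1, by contrast, the change between the stages in TKO lenses was small, at 0.05 ± 0.14 and -0.09 ± 0.12.

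**Figure D5:**
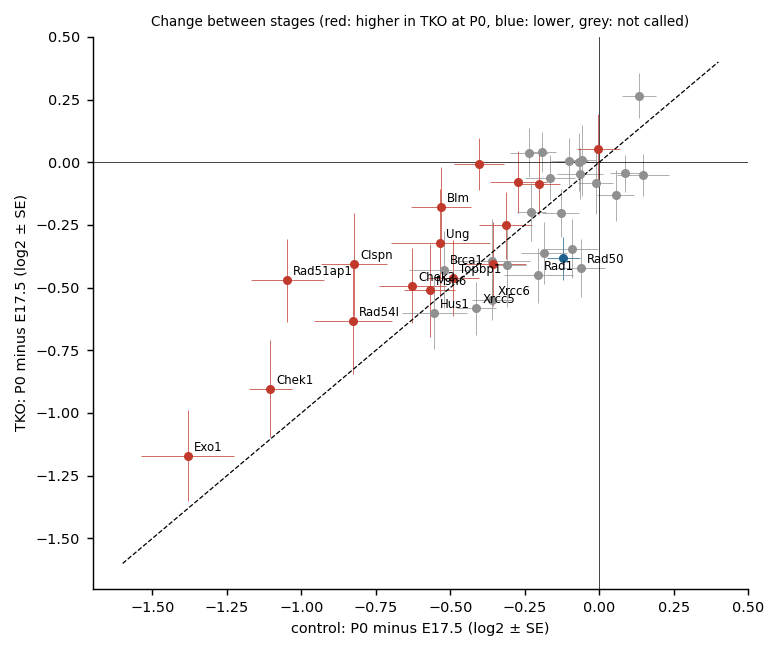
Change between the stages (log2, P0 minus E17.5, with SE bars) of each repair gene in TKO lenses (vertical axis) and control lenses (horizontal axis), with the line of equal change dashed. Of the 41 genes, 31 lie below 0 on both axes, and the genes marked as higher in TKO lenses at P0 include those that were lowest at P0 in control lenses, Exo1 at -1.38, Chek1 at -1.10 and Rad51ap1 at -1.05.

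A further 98 genes of the same pathways were on the array, from a list drawn up by pathway. Over all genes 13.6% were called higher and 11.7% lower at P0. Of the 98, 27 rose and 7 fell at P0, with a median change of 0.07. They were 6 higher and 0 lower of 15 checkpoint genes, 9 and 2 of 24 recombination genes, 3 and 2 of 19 Fanconi and bypass genes, 0 and 1 of 7 end joining genes, and 9 and 2 of 33 mismatch and excision genes. The smallest adjusted p among those that rose were those of Rpa2, a subunit of the protein that coats single-stranded DNA, at 1.05 ± 0.08 (limma adjusted p = 3.16e-05), and of Pcna, the sliding clamp of DNA polymerases, at 1.03 ± 0.10 (adjusted p = 0.000119). Both act in replication as well as in repair. Those that fell included Poli, a bypass polymerase, at -0.38 ± 0.06 (adjusted p = 0.00137), and Rad52, a recombination mediator, at -0.55 ± 0.12 (adjusted p = 0.0063). At E17.5, 2 of the 98 rose and 0 fell, while over all genes 0.912% were called higher and 0.731% lower. The 2 were Rpa2 at 1.07 ± 0.15 (adjusted p = 0.0096) and Tipin, which steadies replication forks, at 0.64 ± 0.12 (adjusted p = 0.0321). Rpa2 was thus called at both stages.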

How the data were processed

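Lens RNA of 20 mice, 5 in each of 4 groups, was measured on Affymetrix mouse arrays. The values deposited by the authors are log2 expression levels of each probe set in each array. The log2 scale was read from the values (1.72 to 15.01). How they were background-corrected, summarised and normalized was not given in the sources used here, and they were used unchanged. Platform annotation named 1 gene for 34945 of 45101 probe sets, several for 932 and none for 9160, beside 64 controls. Symbols were updated through Entrez identifiers and a RefSeq table (GRCm38.p6), which gave 18193 genes. No pair of arrays shared more than 0.142% of its values, and every column was used.

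Each comparison was fitted on its own 10 arrays (8 residual degrees of freedom) with limma 3.58.1 in R 4.3.3 (lmFit, eBayes), two-sided, without a filter on level, so that all 41 genes were tested. Benjamini-Hochberg adjustment ran over all 18193 genes. The difference of effects used all 20 arrays (16 degrees of freedom). Pairwise fits were chosen because earlier results of these data showed that TKO E17.5 arrays vary most. The fit was tested on simulated data. Marker sums and RNA quality were compared by exact two-sided permutation tests with adjustment over 22 tests. Precision is limited by the number of arrays.

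The genes, pathways, marker lists and tests were chosen with earlier results of these data known. All 42 listed genes are named. Values in every array are given for the 2 called genes with the smallest adjusted p in each pathway and stage, and beyond that rule for Chek2, Brca2, Chek1 at E17.5 and Fancd2 at E17.5. Of the 98 other pathway genes, the 2 called with the smallest adjusted p in each direction at P0 are named, and both called at E17.5. Promoters were printed for the 3 higher genes with the smallest adjusted p among those with a motif match, and for the lower gene. Alternatives covered the fit of all arrays, scaling, filters, probe set choice, eBayes settings, array weights, 2 covariates and leaving out each array. The labels name separate mice but no litters, sex or hybridisation batch, and p-values measure the spread between these samples.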

Additional observations from a re-analysis of the deposited data

Results flagged for a closer look

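In 13 of 164 groups of 5 arrays, 1 array stood apart from the other 4 of its group for a repair gene by Dixon's criterion, and chance alone gives about 1 in 20, which is 8.2 of 164. In TKO E17.5 lenses, replicate 28 was low for Trp53bp1 (9.88) and Mre11a (6.43) and high for Xrcc4 (7.61) and Ercc1 (8.94), and replicate 27 was low for Bard1 (3.32). The median deviation of 10 vessel markers from the control mean was 1.32 in replicate 28, against -0.81 to -0.21 in the other TKO E17.5 arrays. Macrophage markers were at 1.07 and lens epithelium markers at -1.66 in replicate 28. The part of these markers in its outlying values was not tested. In TKO P0 lenses, replicate 21 was low for Trp53bp1 (9.70) and Rad50 (6.05), while replicate 22 was low for Fanca (5.70) and high for Neil3 (5.90). In control E17.5 lenses, replicate 10 was low for Topbp1 (7.37) and Mdc1 (4.71). In control P0 lenses, replicate 1 was low for Hus1 (6.22) and replicate 5 high for Nbn (6.45).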

How the results depend on the processing

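Among the 17 genes called at P0, no change reversed its sign in any alternative, and the count of higher genes stayed between 14 and 17 except in 3 settings. It was 3 of the 14 genes tested with the filter at the 75th percentile, and 0 with either the retina or the Gapdh covariate, under which the lower count was 0 too. All 17 genes lost their call under both covariates, Chek2 and Xrcc4 in 9 settings each and Fancd2 in 3. At E17.5 the higher count of 0 became 5 in the fit of all 20 arrays, 16 with array weights, and 1 with the mean of the probe sets (Rad51c), which also gave 1 lower gene (Trp53bp1, -0.68), and 1 without x, s or a probe sets (Chek1, 0.97). Leaving out 1 array gave 0 to 2 higher genes. The difference of effects gave 2 higher (Ercc1, Fancl) and 1 lower gene (Trp53bp1) with array weights, and 0 to 1 lower when 1 array was left out. For P0 against E17.5 in TKO lenses the lower count of 9 became 18 in the fit of all 20 arrays and 14 with median centring. It was 22 with array weights, 19 with the retina covariate, and 3 to 12 when 1 array was left out. With the 75th percentile filter it was 3 of the 14 genes tested. The higher count there was 1 (Fanca) in the fit of all arrays, and 1 with array weights and with the retina covariate, and 0 to 1 when 1 array was left out. In control lenses the lower count of 21 became 9 with the 75th percentile filter. The cause of these shifts was not tested. No paired analysis was possible because the groups compared share no replicate numbers.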
